A study of Arabidopsis thaliana with 9 samples.

Results

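The subject is a set of 200 array rows, 1 gene each, whose root transcript level varied most between plant pools of the same genotype while not following a hypoxia marker gene. They were 200 of 6429 rows that could be chosen (3.11%). Candidates were paired with exactly 1 gene, had a mean log2 value of at least 4 over the 9 arrays, and were neither chloroplast loci (ArthCp) nor AT2G07 loci. From every value the mean of its genotype was subtracted, and what is left is called the deviation. Rows whose deviations had an absolute Pearson r of 0.7 or more with those of AT3G29970, a gene of the core hypoxia response, were dropped, which took out 669 of 7098 rows. The 200 rows with the largest pooled within-genotype standard deviation (SD, with 6 degrees of freedom) were kept. The members were thus chosen by measured values of these same arrays, their spread and their correlation with AT3G29970, so spreads, deviations and correlations are given as description, without tests.

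The roots came from the mutant lines hcr1-1 and hcr1-2 and from wild type Col-0 of Arabidopsis thaliana, with 3 arrays per genotype. HCR1 (HYDRAULIC CONDUCTIVITY OF ROOT 1, AT3G24715) is a kinase gene of the Raf-like class and is known for setting how readily root tissue conducts water. All 3 genotypes shared the Col-0 background, hydroponic culture, ample potassium and oxygen shortage (a pO2 of 11.1 ± 1.1%), so no well-aerated plants and no second potassium level enter any comparison. Plants were 21 days old, each array held 100 ng of root RNA from a pool of 5 plants, and the labels call the pools biological replicates without giving the lesion in either allele.

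Genes known to differ between plants of the same genotype include those that answer quickly to handling, nutrient supply or local oxygen, and those expressed in few cells. Root hair cells, for example, make their own cell wall proteins, such as extensins, expansins and xyloglucan-modifying enzymes. Receptor kinases with leucine-rich repeats and malectin-like domains sense cell wall state and microbial signals at the root surface, and subtilases and germin-like proteins work in the wall space.

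Array medians lay between 3.41 and 3.48 (log2), and Pearson r across rows, which are not independent replicates, was 0.984 to 0.993 between arrays. The tissue label was checked against root genes from a list with 6 tested rows. PYK10 (a root beta-glucosidase) averaged 10.68 and BGLU21 9.69, while the others averaged 2.74 (JAL33) to 9.42 (NAI2). The 4 photosynthesis genes averaged 3.43 to 4.69, above 48.9% to 67.0% of tested rows. These rows therefore do not show that shoot RNA was absent. In pooled root tissue, fewer cells of a type and less RNA per cell cannot be told apart.

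Members had an SD of 0.311 to 0.581 with a median of 0.350, while the median over all eligible rows was 0.144. They were dim rows, with a median level of 4.59 compared with 5.42 for eligible rows, and 141 of them (70.5%) averaged below 5, as did 35.2% of eligible rows. Their genes were also shorter, with a median length of 1953 bases compared with 2529 bases. The brightest member averaged 7.66. On log2 arrays noise is larger near the background, and how much of the spread is measurement noise was not tested.

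**Figure D1:**
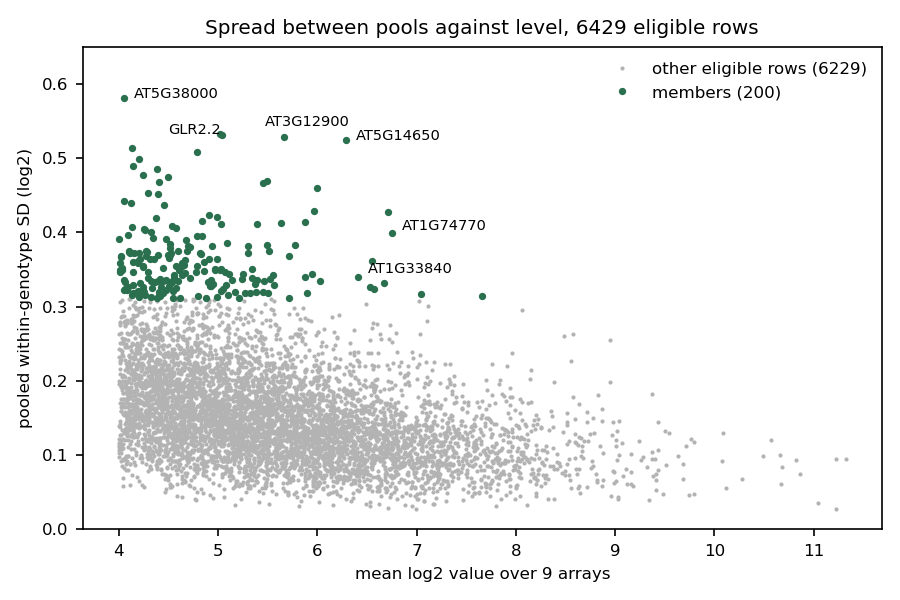
Pooled within-genotype SD of each eligible row (y axis, log2) against its mean log2 value over 9 arrays (x axis). The 200 members, in green, fill the band above an SD of 0.311 and lie mostly at means of 4 to 5, while the 6229 other eligible rows, in grey, have lower SDs at every level.

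The limit on spread was not a gap in the data. AT1G10020, AT2G22230 and AT1G65032 were the last members, with an SD of 0.312, 0.311 and 0.311. AT1G43720, AT4G21650 and AT2G04740 just missed, with an SD of 0.311, 0.311 and 0.310. Of the 669 rows dropped for following AT3G29970, 72 had an SD at least as large as the last member. AT2G41080 (a pentatricopeptide repeat protein, r 0.698), AT3G01175 (r −0.697) and CHX16 (r −0.683) were kept just inside the limit on r. AT1G64920 (r 0.703), AT5G42200 (r 0.707) and AT3G01940 (r −0.709) fell just outside it. Among 22 core hypoxia rows bright enough to be chosen, the limit left 3, and none of these had a spread that made it a member.

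The spread was carried unevenly by the arrays. Replicate 1 of hcr1-2 held 19.3% of the members' sum of squared deviations and was the most deviant array for 60 members, 22 of them high and 38 low. Replicate 1 of hcr1-1 held 15.3% and was the most deviant array for 37 members, of which 33 were low. Replicate 3 of hcr1-2 followed with 27 members. The other 6 arrays held 7.38% to 9.96% each, with 11 to 18 members. Eligible rows as a whole showed the same order at the top, 17.7% on replicate 1 of hcr1-2 and 12.2% on replicate 1 of hcr1-1. The first of these arrays was the most deviant for 30% of members and 22.5% of eligible rows, the second for 18.5% and 12.9%. By genotype, hcr1-1 held 34.6% of the members' sum of squares, hcr1-2 40.5% and Col-0 24.9%, compared with 31.3%, 40.2% and 28.5% in eligible rows.

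**Figure D2:**
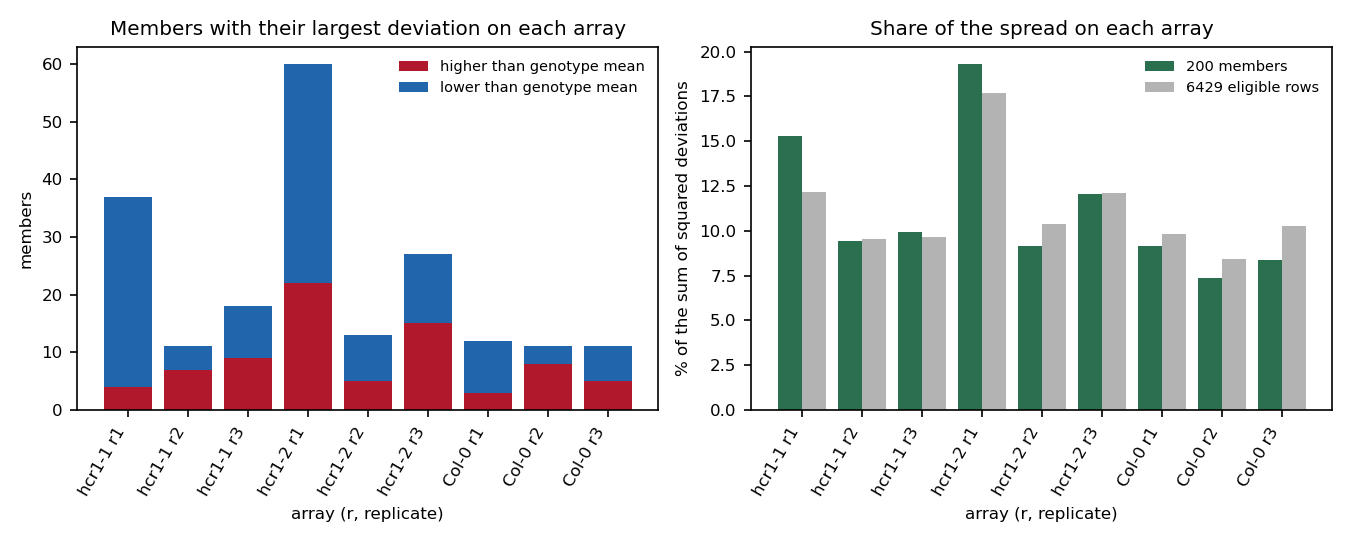
Left, the number of members (y axis) whose largest deviation falls on each of the 9 arrays, split into high and low. Right, the percent of the sum of squared deviations on each array for the 200 members (green) and the 6429 eligible rows (grey). Replicate 1 of hcr1-2 (60 members, 19.3%) and replicate 1 of hcr1-1 (37 members, 15.3%) stand above the other arrays.

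A principal component of the members' deviations that took up 32.3% of their sum of squares set replicate 1 of hcr1-2 (loading −0.75) against replicate 3 of hcr1-2 (0.47). The next, with 28.7%, set replicate 1 of hcr1-1 (loading −0.69) and replicate 1 of Col-0 (−0.42) apart from most other pools. All hcr1-2 pools were near 0 on it (−0.10, 0.10 and −0.01 in replicates 1 to 3). Together these components held 61.1% of the members' sum of squares and 51.3% in eligible rows. Single arrays also carried some members: for 40 of them (20%) 1 array held at least 50% of the row's sum of squares, as it did for 13.3% of eligible rows.

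The 15 members with the largest SD ranged from AT5G38000 (0.581) to AT1G60110 (0.466). AT5G38000, a zinc-binding dehydrogenase, had log2 values of 4.23, 4.09 and 3.72 in hcr1-1 (replicates 1 to 3, the order used throughout), 5.01, 3.12 and 4.20 in hcr1-2, and 3.81, 4.10 and 4.19 in Col-0. Of its sum of squares 89.1% lay in hcr1-2, where replicate 1 was the highest and replicate 2 the lowest of all 9 arrays. AT3G32047, a cytochrome P450, had 4.40, 4.38 and 4.21 in hcr1-1, 4.35, 2.90 and 4.48 in hcr1-2, and 4.28, 4.05 and 4.15 in Col-0. Replicate 2 of hcr1-2 was low and held 64.3% of that row's sum of squares, while the other 8 arrays lay close together. AT1G78070, a WD40 repeat protein, had 5.29, 4.11 and 4.10 in hcr1-1, at most 4.84 in hcr1-2, and 4.68, 4.37 and 4.69 in Col-0, with replicate 1 of hcr1-1 the highest. AT5G51080 and AT3G61898 were lowest in replicate 1 of hcr1-2, at 3.26 and 3.43.

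Clustering the members by the correlation of their deviations (average linkage on 1 − r, limit 0.3) gave 5 groups of at least 8 rows, with 92 members. Each group is called by its most variable gene. Another 28 groups had 2 to 7 rows and 8 members stood alone, so that 108 members were outside the larger groups.

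**Figure D3:**
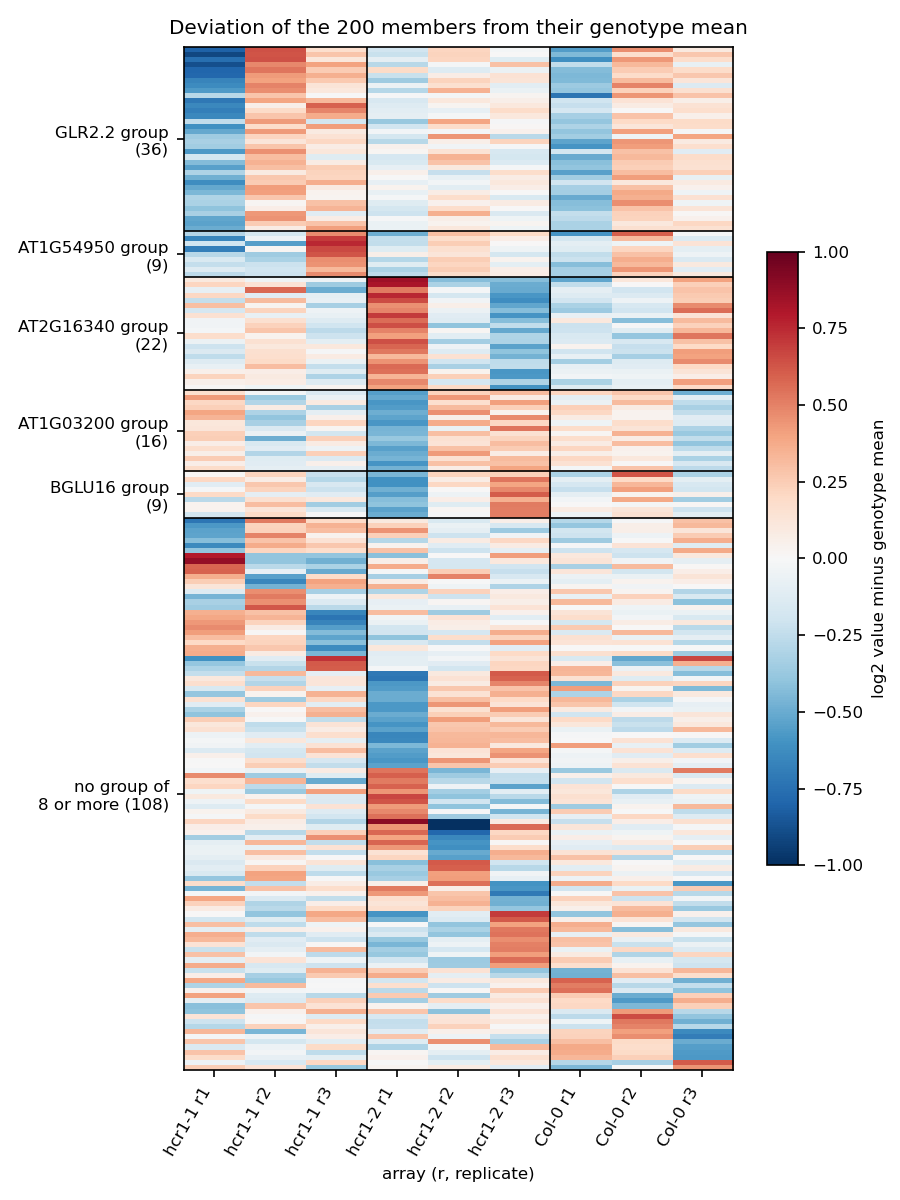
Deviation from the genotype mean (colour, log2, red high and blue low) of the 200 members (rows) on the 9 arrays (columns, hcr1-1, hcr1-2 and Col-0 from left to right). Lines part the 5 groups and the 108 members outside them, which are ordered by the array with their largest deviation. The GLR2.2 group is blue on replicate 1 of hcr1-1 and of Col-0, and the AT2G16340 and AT1G03200 groups have opposite colours on replicate 1 of hcr1-2.

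The GLR2.2 group was the largest, with 36 members that were low in replicate 1. Its mean deviations were −0.53, 0.33 and 0.20 in hcr1-1, −0.12, 0.11 and 0.01 in hcr1-2, and −0.39, 0.27 and 0.11 in Col-0. Replicate 1 was the lowest of its genotype for all 36 rows in hcr1-1 and for all 36 in Col-0, and for 23 of 36 in hcr1-2. The labels do not say that a replicate number marks a shared culture or day. Over the deviations of the 200 members, replicate 1 of hcr1-1 and of Col-0 had an r of 0.487, compared with 0.154 over all tested rows. The members were chosen for large deviations and include the 36 rows of the group, so that r is no separate result. Replicate 1 of hcr1-2 had an r of 0.01 with replicate 1 of hcr1-1 and −0.16 with replicate 1 of Col-0. It had an r of 0.37 with replicate 3 of Col-0, a pool of another number.

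GLR2.2, a glutamate receptor-like channel, had log2 values of 4.31, 5.76 and 5.29 in hcr1-1, 4.94, 5.35 and 5.11 in hcr1-2, and 4.24, 5.26 and 4.90 in Col-0. Replicate 1 was the lowest pool in all 3 genotypes, and the genotypes overlapped. AT1G07560, a receptor kinase with leucine-rich repeats, had 3.92, 5.46 and 5.11 in hcr1-1, 5.05, 5.49 and 5.28 in hcr1-2, and 4.56, 5.17 and 5.27 in Col-0. AT5G14650, a pectin lyase-like protein of the polygalacturonase type, had 5.33, 6.73 and 6.20 in hcr1-1, 6.53, 6.83 and 6.50 in hcr1-2, and 5.53, 6.58 and 6.32 in Col-0. For both, replicate 1 of hcr1-1 was the lowest of the 9 arrays. AT1G33840 followed the group mean most closely (r 0.994 over 9 arrays), with 5.63, 6.47 and 6.41 in hcr1-1, 6.74, 6.92 and 6.82 in hcr1-2, and 5.85, 6.48 and 6.40 in Col-0. Its hcr1-2 arrays were all above the arrays of both other genotypes. AT5G38930, a germin-like protein, reached its lowest value, 3.07, in replicate 1 of hcr1-1, and its other arrays lay between 4.03 and 4.66.

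Many of the other rows in the group belong to genes of known families. AT1G51830, AT1G51860 and AT3G21340 are receptor kinases of the same kind as AT1G07560, AT4G10510 and AT4G10530 are subtilases (serine proteases of the wall space), and EXPB2 and XTH26 are a beta-expansin and a xyloglucan endotransglucosylase that loosen or remodel walls. HRGP1 is a hydroxyproline-rich wall glycoprotein, AT2G43590 a chitinase-like protein, AT1G60110 a jacalin-type lectin and AT4G25090 an NADPH oxidase. CHX16 is a cation/H+ exchanger, GSTU28 a glutathione transferase, GH3.17 an enzyme that conjugates auxin to amino acids, and MT1C a metallothionein. Family names of loci without a symbol are background knowledge and not taken from the files, and no enrichment of a class was tested: descriptive names covered only 6.60% of eligible rows, so a check over name classes is void.

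AT1G51860 had 4.51, 5.62 and 5.55 in hcr1-1, 5.61, 5.88 and 5.84 in hcr1-2, and 5.26, 5.60 and 5.52 in Col-0, and 58.6% of its sum of squares lay on replicate 1 of hcr1-1. AT3G21340 deviated most in Col-0 instead, with 3.95, 4.50 and 4.22 in hcr1-1, 4.61, 4.61 and 4.65 in hcr1-2, and 3.41, 4.58 and 4.43 in Col-0. EXPB2 was likewise lowest in replicate 1 of Col-0, at 3.90. The low arrays were therefore the same for these rows, but which of them lay lowest differed.

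The pattern extended beyond the members. Another 81 eligible rows had an r of at least 0.9 with the mean of the GLR2.2 group. They were brighter (median 6.16) and varied less (median SD 0.176) than the members.

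Some root hair genes varied along with the GLR2.2 group, though not with that group alone. Of 34 genes on a root hair list, 11 had a tested row and 8 a mean of at least 4. XTH26, a member of the group, was the lowest in replicate 1 of each genotype. All 5 of the 8 rows that were no members had an r above 0 with the group mean, and 3 of these 5 had an r of at least 0.7, compared with 53.1% and 8.11% of the 6229 eligible rows that were no members. The 3 were AT1G23720 (an extensin, r 0.930), AT3G28550 (an extensin, r 0.907) and AT4G26010 (a peroxidase, r 0.786). The list was chosen with earlier results of these data known, and the 5 rows are not independent cases. Enrichment of the list was therefore not tested, and these shares are description. AT1G23720 had log2 values of 7.40, 7.99 and 7.85 in hcr1-1, 8.06, 8.04 and 7.92 in hcr1-2, and 7.61, 7.88 and 7.84 in Col-0. The mean deviation of those 5 rows was −0.22, 0.10 and 0.12 in hcr1-1, −0.01, −0.02 and 0.03 in hcr1-2, and −0.27, 0.13 and 0.14 in Col-0, low in replicate 1 of hcr1-1 and of Col-0 and flat in hcr1-2. EXPA7, a root hair expansin, followed the group only weakly (r 0.262), and AT4G08410, a dim row of the list, had an r of −0.263. The mean deviation of all 8 rows, members included, had an r of 0.859 with the GLR2.2 group and 0.855 with the AT1G54950 group, described below. For the 5 rows that were no members these values were 0.917 and 0.617.

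On the linear scale the summed level of all 8 root hair rows was 422 to 583 in hcr1-1, 600 to 634 in hcr1-2 and 455 to 596 in Col-0. The dimmest of the 11 tested root hair rows, AT1G30870 (a peroxidase), averaged 2.30, and none was at 0. Of the endodermis list 2 of 2 rows had an r above 0 with the GLR2.2 group, of the xylem list 1 of 1, of the dividing-cell list 1 of 1 and of the shoot list 1 of 3. High values were not limited to root hair genes: GSO1, an endodermal receptor kinase, had an r of 0.898 with the group mean and LHCB4.1, a chlorophyll-binding protein of the shoot list, an r of 0.728. Those lists are too thinly measured to be read further. The part of any cell type in the members' spread was not tested.

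The AT1G54950 group (9 members) also held root hair genes. Its mean deviations were −0.32, −0.23 and 0.55 in hcr1-1, −0.22, 0.21 and 0.01 in hcr1-2, and −0.28, 0.30 and −0.03 in Col-0. All 9 rows were highest in replicate 3 of hcr1-1, replicate 2 of hcr1-2 and, for 8 of 9, replicate 2 of Col-0. AT5G06630, a root hair extensin, had 3.96, 3.98 and 4.65 in hcr1-1, 4.59, 4.93 and 4.61 in hcr1-2, and 4.11, 4.86 and 4.63 in Col-0. AT3G54580, another extensin of the list, had 4.58, 4.50 and 5.48 in hcr1-1, 5.19, 5.25 and 4.96 in hcr1-2, and 4.75, 5.29 and 4.94 in Col-0. In both, 2 of the 3 hcr1-1 pools were low and the remaining pool was not.

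AT1G52790, a dioxygenase of the 2-oxoglutarate-dependent family, followed that group's mean most closely (r 0.975), with 5.12, 5.17 and 5.84 in hcr1-1, 5.34, 5.78 and 5.67 in hcr1-2, and 5.22, 5.78 and 5.64 in Col-0. AT4G00910, of the aluminium-activated malate transporter family, had 3.24, 3.84 and 4.59 in hcr1-1, 3.71, 4.12 and 4.01 in hcr1-2, and 4.34, 4.83 and 4.38 in Col-0. The group also held AT3G51340 (an aspartyl protease), AT5G26130 (of the pathogenesis-related 1 type), AT5G38850 (an immune receptor with TIR, nucleotide-binding and leucine-rich repeat domains) and APG8A, a ubiquitin-like protein of autophagy. Its mean had an r of 0.620 with the mean of the GLR2.2 group. In replicate 2 of hcr1-1 the groups had opposite signs, −0.23 here and 0.33 in the GLR2.2 group.

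**Figure D4:**
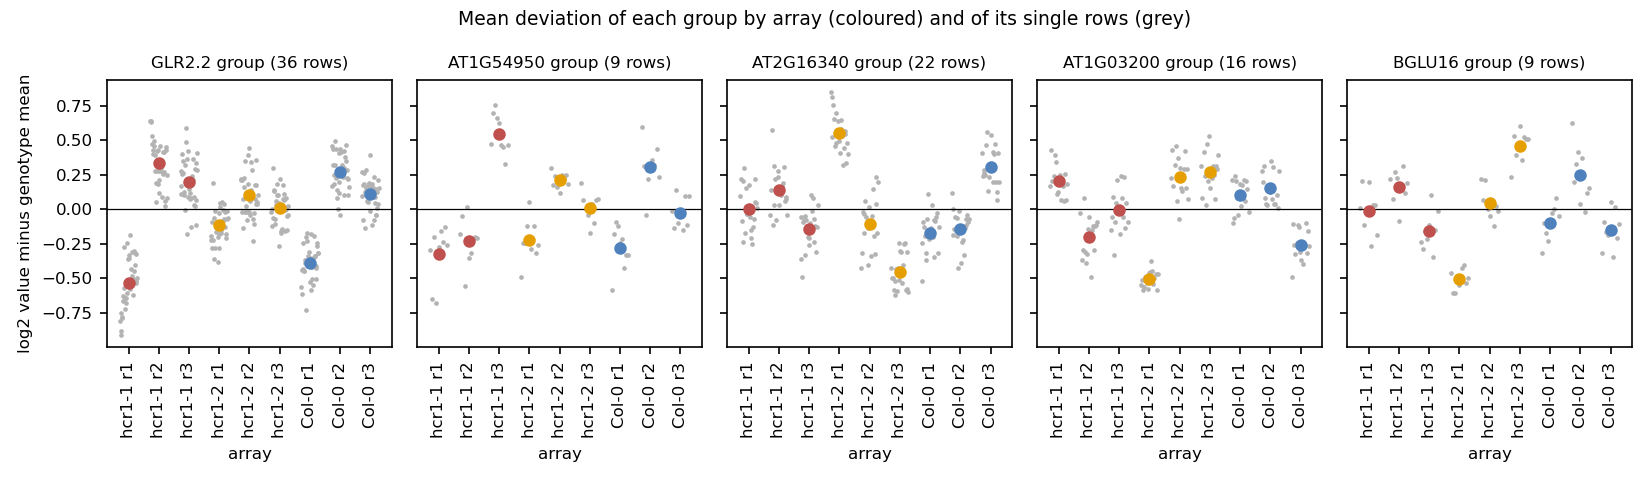
Mean deviation of each of the 5 groups on each array (coloured points; y axis, log2 value minus genotype mean) and the deviations of their single rows (grey points), with hcr1-1 in red, hcr1-2 in orange and Col-0 in blue. The GLR2.2 group dips on replicate 1 of hcr1-1 (−0.53) and of Col-0 (−0.39), and the AT2G16340, AT1G03200 and BGLU16 groups have their extremes on replicate 1 of hcr1-2 (0.55, −0.51 and −0.51).

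The remaining 3 groups turned on hcr1-2. The AT2G16340 group (22 members) was high in replicate 1 of hcr1-2 for all 22 rows, with mean deviations of 0.00, 0.14 and −0.14 in hcr1-1, 0.55, −0.10 and −0.45 in hcr1-2, and −0.17, −0.14 and 0.31 in Col-0. The AT1G03200 group (16 members) ran the other way, with 0.21, −0.20 and −0.01 in hcr1-1, −0.51, 0.24 and 0.27 in hcr1-2, and 0.10, 0.15 and −0.26 in Col-0. Their means had an r of −0.904 over the 9 arrays. The BGLU16 group (9 members) was low in replicate 1 of hcr1-2 and high in replicate 3, with −0.01, 0.17 and −0.16 in hcr1-1, −0.51, 0.05 and 0.46 in hcr1-2, and −0.10, 0.25 and −0.15 in Col-0.

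AT2G16340 itself had log2 values of 5.01, 4.87 and 4.86 in hcr1-1, 5.56, 4.29 and 4.29 in hcr1-2, and 4.23, 4.87 and 5.16 in Col-0. AT2G13422 was the row closest to that group's mean (r 0.964), with 5.71, 6.01 and 5.47 in hcr1-1, 6.16, 5.68 and 5.15 in hcr1-2, and 5.55, 5.63 and 6.08 in Col-0. In both, replicate 1 of hcr1-2 was the highest of the 9 arrays and replicate 3 of hcr1-2 was low. AT5G03090 reached 6.83 in replicate 1 of hcr1-2, above its other 8 arrays at 5.50 to 6.22. AT2G42100, an actin-like protein, was also highest there, at 5.68. Many genes of this group are small: their median length was 652 bases, and they include SCRL20, a gene for a small cysteine-rich peptide.

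In the AT1G03200 group, replicate 1 of hcr1-2 was the lowest pool of its genotype for all 16 rows. AT5G27395, related to a mitochondrial import subunit, followed its mean most closely (r 0.966), with 5.38, 5.10 and 5.16 in hcr1-1, 4.50, 5.33 and 5.29 in hcr1-2, and 5.25, 5.08 and 4.78 in Col-0. AT5G14580, a polyribonucleotide nucleotidyltransferase of mitochondria, had 5.92, 5.75 and 5.91 in hcr1-1, 4.87, 5.75 and 5.75 in hcr1-2, and 5.97, 5.83 and 5.66 in Col-0. RECQ4A, a DNA helicase, had 5.03, 4.65 and 4.64 in hcr1-1, 4.47, 5.09 and 5.25 in hcr1-2, and 4.89, 4.79 and 4.37 in Col-0. Replicate 1 of hcr1-2 was the lowest or near the lowest array for each. TRZ3 (a tRNA 3′ processing enzyme), CHR23 (a chromatin remodeller), AT4G18440 (of the adenylosuccinate lyase type) and nad1, a mitochondrially encoded subunit of respiratory complex I, were in the same group. The nad1 member row is 1 of 7 rows of that gene and the dimmest. The other 6 averaged 4.18 to 11.32 with a smaller SD of 0.094 to 0.218, and their r with the member row was 0.434 to 0.809.

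BGLU16, a beta-glucosidase, had 5.34, 5.55 and 5.09 in hcr1-1, 4.49, 5.17 and 5.18 in hcr1-2, and 4.49, 5.44 and 4.49 in Col-0. AT1G53340 followed the mean of that group most closely (r 0.971), with 4.28, 4.52 and 4.08 in hcr1-1, 4.06, 4.54 and 5.03 in hcr1-2, and 4.49, 5.13 and 4.53 in Col-0. AT3G55890 (of the Yippee family), AT3G02510 (an RCC1 repeat protein), AT4G19045 (a MOB1-like kinase activator), AT2G29065 (a GRAS family regulator) and AT1G14220 (a T2 ribonuclease) were low in replicate 1 of hcr1-2 with it.

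Whole arrays also differed in measures that were set beside these groups. In replicate 1 of hcr1-2 the dimmest 25% of all tested rows deviated by 0.10 and the brightest 25% by −0.09 on average, and in replicate 3 of hcr1-2 they deviated by −0.10 and 0.07. The other 7 arrays stayed between −0.05 and 0.05 for both. Among eligible rows, those of the longest 25% of genes averaged −0.10 and those of the shortest 25% −0.04 in replicate 1 of hcr1-2. An estimate of array quality from the fit, limma's array weight, was lowest there, at 0.472, compared with 0.785 to 1.47 for the other 8 arrays. It is computed from deviations from the genotype means, so it is not a measure separate from them. Another 164 eligible rows had an r of −0.9 or below with the mean of the AT2G16340 group, and their genes had a median length of 2864 bases. Rows with an r of at least 0.9 with the mean of the AT1G03200 group numbered 147. Much of the array moved with these groups. Of the 6229 eligible rows that were no members, 73.4% had an r above 0 with the AT1G03200 group mean and 18.8% at least 0.7. For the BGLU16 group these shares were 74.4% and 13.5%, and for the AT2G16340 group 23.4% and 2.05%. The AT1G03200 and BGLU16 groups (median level 4.53 and 4.52) were low in replicate 1 of hcr1-2. With means of at least 4, no member belonged to the dimmest 25% of tested rows. The AT2G16340 group, with short genes, was high in replicate 1 of hcr1-2, where the shortest 25% of genes lay above the longest 25% on average. The part of gene length, brightness or RNA quality in these groups was not tested.

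Outside the groups, some members were high or low on 1 array, and those with the largest share of their sum of squares on an array were picked for description. AT4G29780, a nuclease-like gene, had 5.67, 4.39 and 4.31 in hcr1-1, 4.28, 4.06 and 4.33 in hcr1-2, and 4.31, 4.14 and 4.08 in Col-0, so that only replicate 1 of hcr1-1 was high. AT2G30840, a dioxygenase, was low there instead, at 4.57, with the other 8 arrays at 5.44 to 5.70. AT2G41080 was low in replicate 2 of hcr1-1 (3.67), as was AT3G29970 (deviation −1.66), with which it had an r of 0.698. AT4G11210, a dirigent protein, was high in that pool (6.17). AT1G73950 and AT4G11190, another dirigent protein, were low in replicate 3 of hcr1-1, at 4.52 and 5.18. CHLM, a methyltransferase of chlorophyll synthesis, was low in replicate 1 of hcr1-2 (4.44), where its other arrays were at 5.02 to 5.41.

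In replicate 2 of hcr1-2, AT4G39150, a DnaJ-type chaperone, was high (6.10), as was AT5G12920, a WD40 repeat protein (5.04). MIR162A, the row of a microRNA gene whose product targets DICER-LIKE 1, was high in replicate 3 of hcr1-2 (4.77), with its other arrays at 3.85 to 4.45. In Col-0, AT4G30330, of the small nuclear ribonucleoprotein E type, was high in replicate 1 (4.68), AT3G11385 was high in replicate 2 (4.50), and AT2G28755 was high in replicate 3 (6.27). AT4G30500 and AT1G55380 were low in that last pool, at 3.75 and 4.59.

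Gene lists for processes known for quick or nutrient-driven changes were little measured. Of 614 genes on 26 lists, 44 had an eligible row and 6 of these 44 were members, where 3.11% of all eligible rows were members, from the iron deficiency list (2 of its 3 eligible rows), the root hair list (3 of 8) and the list of touch and rapid stress genes (1 of 1). The other 23 lists, among them phosphate, nitrogen, jasmonate, defence, heat shock, abscisic acid, auxin and ethylene genes, gave none, but 6 of them had no eligible row and most had 1 to 3.

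The 2 iron genes were AT3G12900 and AT1G74770. AT3G12900 encodes the scopoletin 8-hydroxylase that makes fraxetin, a coumarin that roots secrete to mobilise iron. It had 5.10, 5.59 and 6.43 in hcr1-1, 6.15, 6.23 and 6.38 in hcr1-2, and 4.89, 4.53 and 5.72 in Col-0. The hcr1-2 pools were close together and above every Col-0 pool, while the hcr1-1 pools overlapped both. AT1G74770 (BTSL1), an E3 ubiquitin ligase that restrains iron uptake, had 6.40, 6.56 and 7.40 in hcr1-1, 6.71, 6.70 and 7.02 in hcr1-2, and 6.74, 6.25 and 7.03 in Col-0. Replicate 3 was highest in each genotype, as it was for AT3G29970, with which BTSL1 had an r of 0.674, just under the limit, and AT3G12900 an r of 0.508. With a limit of 0.5 neither gene would be a member.

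STZ, a zinc finger repressor induced by cold, salt, touch and wounding, was the touch gene. Its log2 values were 5.96, 5.57 and 4.94 in hcr1-1, 4.57, 4.81 and 4.89 in hcr1-2, and 5.22, 4.97 and 4.69 in Col-0. The hcr1-1 pools were above the hcr1-2 pools without overlap, and Col-0 lay between and overlapped both. AT4G27280, a calcium-binding EF-hand protein, and AR781 were members too, but stood outside the 5 groups like STZ.

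The members fell on all 5 nuclear chromosomes (55, 27, 30, 38 and 48 members on chromosomes 1 to 5), and some lie near each other. In 24 pairs, with 36 members, both lay within 10 genes of each other, and 7 of the 24 pairs (29.2%) had an r of at least 0.7, compared with 9.22% of all member pairs and 7.80% of eligible pairs within 10 genes. Another 7 of the 24 pairs had an r below 0, and the median over the 24 was 0.33. AT1G33870, AT1G33890 and AT1G33900, GTPases of the AIG1 type, lie within 8 genes of AT1G33840, with an r of 0.788, 0.723 and 0.914 to it. Pairs within that cluster share genes, so they are not separate cases. AT1G51830 and AT1G51860 had an r of 0.880, AT4G10510 and AT4G10530 an r of 0.740, and AT1G07560 and MT1C an r of 0.959. The extensins AT3G54580 and HRGP1, adjacent genes, had an r of only 0.283. Within such families, and between MT1C and the like metallothionein genes, probes may share sequence, and whether they do was not tested. Of the 200 members, 5 more besides nad1 had another row of the same gene, all dimmer than 4 and with an r of −0.497 to 0.105 to the member row.

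Genotype was set against genotype across all 16746 one-gene rows with limma, a linear model that pools the spread of all 9 arrays. The members were chosen for a large spread, which lowers what that test can detect: the median standard error (SE) of a log2 fold change was 0.228 for members and 0.128 for eligible rows. No member passed an adjusted p of 0.05 in any of the 4 comparisons, with 0% of all rows called in each. At an unadjusted p under 0.05, hcr1-1 against Col-0 gave 6 members (3% of members, 3.24% of all rows), 2 higher (1.95% of all rows) and 4 lower (1.28%). For hcr1-2 against Col-0 there were 9 (4.5% of members, 5.4% of all rows), 5 higher (3.05%) and 4 lower (2.35%). When both alleles were averaged there were 9 (4.5% of members, 3.73% of all rows), 3 higher (2.08%) and 6 lower (1.64%). For hcr1-2 against hcr1-1 there were 12 (6% of members, 5.33% of all rows), 9 higher (3.02%) and 3 lower (2.31%). Among eligible rows, from which the members were drawn, the shares were 1.76% for hcr1-1, 3.95% for hcr1-2, 2.38% for both averaged and 4.32% between the alleles. No difference between shares was tested, and nothing is read from them.

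Counts of members whose arrays did not overlap between genotypes are set against all rows in the same way. There were 7 for hcr1-1 against Col-0 (9.21% of all rows), 1 higher (5.18%) and 6 lower (4.02%). There were 18 for hcr1-2 against Col-0 (10.4%), 14 higher (6.1%) and 4 lower (4.34%). With both alleles pooled HCR1 alone did not overlap (1.82%), none being higher (1.11%) and 1 lower (0.711%). Between hcr1-2 and hcr1-1 there were 11 (9.85%), 7 higher (5.31%) and 4 lower (4.54%). The comparisons with Col-0 share its arrays.

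HCR1, the gene named in the mutant labels, was itself a member, and replicate 3 of hcr1-1 held 59.4% of its sum of squares. Its row had log2 values of 3.46, 3.25 and 2.36 in hcr1-1, 4.24, 4.38 and 4.30 in hcr1-2, and 4.60, 4.85 and 4.88 in Col-0. All 6 mutant pools were below all Col-0 pools, and the hcr1-1 pools were below the hcr1-2 pools. The row met the minimum mean of 4 only through hcr1-2 and Col-0. The log2 fold change was −1.76 (SE 0.23, 3 against 3 arrays) for hcr1-1 against Col-0, with limma's adjusted p = 0.13, the smallest of all members. It was −0.48 (SE 0.23, adjusted p = 0.903) for hcr1-2 against Col-0. Without replicate 3 of hcr1-1 the log2 fold change was −1.43 and limma's adjusted p = 0.0151.

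After HCR1, the members with the smallest unadjusted p for hcr1-1 against Col-0 were AT2G44390 (log2 fold change −0.59, SE 0.24) and the histone H2B gene AT2G37470 (−0.51, SE 0.21), both with limma's adjusted p = 1. AT2G44390 had 4.29, 3.81 and 4.12 in hcr1-1, 4.93, 4.29 and 3.80 in hcr1-2, and 4.80, 4.66 and 4.53 in Col-0. AT2G37470 had 3.98, 3.38 and 4.21 in hcr1-1, 4.73, 4.33 and 4.07 in hcr1-2, and 4.40, 4.33 and 4.37 in Col-0. In both, all 3 hcr1-1 pools were below all Col-0 pools.

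For hcr1-2 against Col-0, AT1G49560, a transcription factor of the GARP type, had the smallest unadjusted p (log2 fold change −0.85, SE 0.21, limma's adjusted p = 0.903). It had 4.58, 4.26 and 4.03 in hcr1-1, 3.13, 3.47 and 3.93 in hcr1-2, and 4.45, 4.06 and 4.58 in Col-0. The hcr1-2 pools lay below all other pools. AT3G12900 came next (1.21, SE 0.33, limma's adjusted p = 0.903), higher in 3 of 3 hcr1-2 pools, followed by the protein kinase AT1G72540 (−0.70, SE 0.23, limma's adjusted p = 0.903). AT1G72540 had 4.50, 4.45 and 4.83 in hcr1-1, 3.95, 4.47 and 4.44 in hcr1-2, and 5.19, 4.43 and 5.35 in Col-0, where replicate 2 lay among the mutant pools.

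Between the alleles, hcr1-2 against hcr1-1, the members with the smallest unadjusted p were HCR1 (log2 fold change 1.28, SE 0.23, limma's adjusted p = 0.719), AT1G49560 (−0.78, SE 0.21, limma's adjusted p = 0.744) and STZ (−0.73, SE 0.23, limma's adjusted p = 0.857). With the alleles averaged and set against Col-0 they were HCR1 (−1.12, SE 0.20), AT3G12900 (0.93, SE 0.28) and AT1G72540 (−0.55, SE 0.20), each with limma's adjusted p = 0.998.

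**Figure D5:**
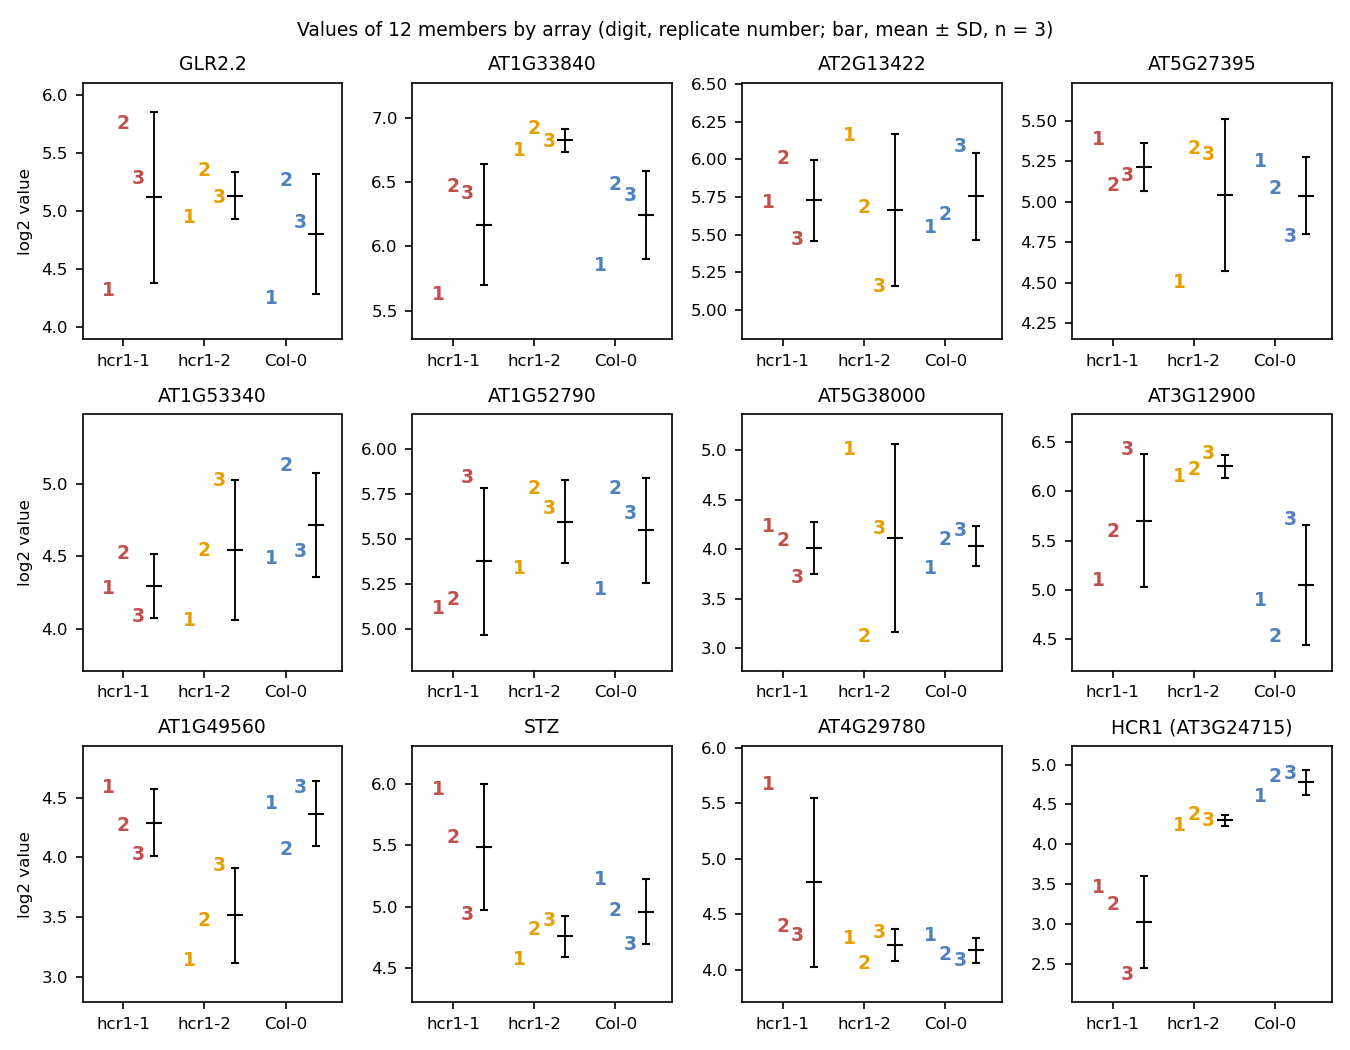
Log2 values (y axis) of 12 members in hcr1-1 (red), hcr1-2 (orange) and Col-0 (blue). Digits are single arrays by replicate number, and black bars the mean ± SD of 3 arrays. Replicate 1 lies low for GLR2.2 and AT1G33840 in hcr1-1 (4.31 and 5.63) and Col-0 (4.24 and 5.85), and of the 12 only HCR1 has 3 genotypes that overlap in no pair.

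With all 9 arrays, most rows of the GLR2.2 group had higher means in hcr1-2: 32 of its 36 rows had a positive log2 fold change against Col-0 (median 0.30) and 34 of 36 against hcr1-1 (median 0.32). The rows were grouped for varying together (median pairwise r 0.82), so these are not counts of independent results. Over all 200 members 126 were higher in hcr1-2 than in Col-0, with a median of 0.07, and the median over all tested rows was 0.01. The rows of the group share low values in replicate 1 of Col-0 and of hcr1-1, so leaving out either pool had to lower the matching median. Without replicate 1 of Col-0 the median against Col-0 was 0.08 (24 of 36 rows higher). Without replicate 1 of hcr1-1 the median against hcr1-1 was 0.05 (24 of 36). Without replicate 1 of any genotype, an alternative chosen after seeing the data, the medians were 0.15 and 0.13, with 28 of 36 rows higher in each. No row of the group passed the adjusted threshold, the smallest limma adjusted p being 0.903 against Col-0 and 0.898 against hcr1-1. The medians of the other 4 groups lay between −0.03 and 0.09 for hcr1-2 against Col-0, but without replicate 1 of every genotype they lay between −0.39 (AT2G16340 group) and 0.30 (AT1G03200 group).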

How the data were processed

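RNA of 9 root pools was hybridised to Affymetrix Arabidopsis Gene ST arrays. The log2 values were deposited by the authors after RMA, run in Affymetrix Expression Console per the submitters' processing notes. Background correction and quantile normalization are part of RMA. Tool versions and the genome build are not given in the sources used here. Of 38408 rows, 16746 were paired with exactly 1 gene by the platform annotation, 758 with several and 20904 were not listed. Of the 16746, 16741 matched the TAIR10.1 gene table, the source of symbols, lengths and order on the chromosome.

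The members and gene lists were chosen with earlier results of these data known. Rows were ranked by within-genotype spread, and members were clustered on 1 − r of their deviations. Genotypes were compared with limma 3.58.1 in R 4.3.3 over all 16746 rows (one linear model, empirical Bayes variances, Benjamini-Hochberg adjustment), checked on simulated data. Rows dimmer than a mean of 4 gave no members. Arrays have no read depth, so their number, 3 per genotype, limits the precision. The p-values weigh differences between genotype means against the spread between these pools, with variances that borrow from all 16746 rows.

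Replicate numbers were not treated as pairs: over all tested rows, 9 same-numbered pairs had r of −0.19 to 0.16, and 2 exceeded 0.1.

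Named genes were the 15 members with the largest SD, the 6 rows closest to each group's mean and its 4 most variable rows, up to 4 members per list, the 3 smallest unadjusted p per comparison, the rows around the SD limit, and per array the 3 members with the largest share of their spread on it. Other group members were named to describe the groups after their values were seen. A planned count by name class is void, since under 80% of eligible rows carried a descriptive name, and a planned promoter search was not run.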

Additional observations from a re-analysis of the deposited data

How the results depend on the processing

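Membership depended on the level limit. Of the 200 members, 68 were kept with a minimum mean of 3, 59 with a minimum of 5, and 110 with the median absolute deviation as the measure of spread. The count at a minimum of 5 was fixed in advance, since 141 members averaged below 5 and the others had to stay. Leaving out 1 array at a time kept 127 to 167, fewest without replicate 1 of hcr1-2, and 13 members were kept in all 9 such settings. The share of the sum of squares on replicate 1 of hcr1-2 was 13.1% with no limit on r and 13.4% to 26.6% with 1 array left out, and the members most deviant there numbered 38 to 78. On replicate 1 of hcr1-1 the share was 11.7% with a minimum mean of 3, 19.1% with a minimum of 5 and 10.3% to 23.4% with 1 array left out. The members most deviant there were 60 with a minimum of 5 and 19 to 67 with 1 array left out. Complete linkage gave 3 groups of at least 8 rows, with 12 rows of the GLR2.2 group, 8 of the AT2G16340 group, 5 of the AT1G54950 group, 4 of the BGLU16 group and 4 of the AT1G03200 group still together. A grouping limit of 0.2 also gave 3, with 12 rows of the AT2G16340 group, 5 of the AT1G54950 group, 5 of the BGLU16 group and 10 of the AT1G03200 group together. After quantile normalization 5 rows of the BGLU16 group and 10 of the AT1G03200 group stayed together. The cause of these shifts was not tested.

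In limma, 1 member, HCR1, passed for hcr1-1 against Col-0 when only rows with a mean of at least 4 were tested (adjusted p = 0.0304). Its hcr1-1 values were all below 4, so its row met that limit only through hcr1-2 and Col-0. With trended and robust variances 1 member, again HCR1, passed limma (adjusted p = 0.012). Leaving out 1 array gave 0 to 1 members for that comparison and 0 to 1 for both alleles averaged, the call coming without replicate 3 of hcr1-1 (adjusted p = 0.0448 for the average). HCR1's adjusted p for hcr1-1 ranged from 0.012 to 0.844 over the alternatives. With the replicate number as a replicate block 0 members passed in any comparison, and 12, 20, 14 and 26 had an unadjusted p under 0.05 for hcr1-1, hcr1-2, both averaged and hcr1-2 against hcr1-1. The iron list held 0 to 2 members, the root hair list 0 to 4 and the touch list 0 to 1 over the alternatives. As an alternative chosen after seeing the data, dropping replicate 1 of every genotype gave medians of −0.39 for the AT2G16340 group (hcr1-2 against Col-0) and 0.20 for the BGLU16 group (hcr1-2 against hcr1-1).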

Other observations

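Rows that the annotation pairs with no gene or with several were not candidates. Of 8198 such rows with a mean of at least 4 that the limit on r would have kept, 1181 (14.4%) had a spread at least as large as that of the last member, compared with 3.11% of eligible rows.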
